A study of Homo sapiens with 6 samples.

Results

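Counts of 8 genes were followed in small extracellular vesicles shed by squamous carcinoma spheroids: the 4 receptors of the EGFR family (EGFR, ERBB2, ERBB3 and ERBB4), the receptor MET, and 3 genes that lie beside EGFR on chromosome band 7p11 (SEC61G, LANCL2 and VOPP1). They were chosen by name, the neighbours of EGFR as a gauge of gene copies, and they are 8 of the 38167 genes in the count table. All 8 had counts in each of the 6 libraries, and all 8 passed the filter on low counts. The vesicles came from spheroids of Cal27, an established line of squamous carcinoma of the tongue. Spheroids in stiff gel (Matrigel at 12 mg/mL, 3 libraries) were compared with spheroids in soft gel (Matrigel at 3 mg/mL, 3 libraries), all at day 14. Both groups share the cell line, the way of making spheroids and the isolation of vesicles from the medium by insulator-based dielectrophoresis, and no genotype or drug differs between them. Matrigel is a protein gel from a mouse tumour, so a higher concentration changes the amount of its proteins together with the stiffness, and these cannot be told apart here. The labels call the libraries biological replicates.

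EGFR, ERBB2, ERBB3 and ERBB4 are receptor tyrosine kinases that pair with each other at the cell surface. A ligand bound outside the cell lets the kinase of one receptor phosphorylate the tail of its partner, and adaptor proteins docked there start the RAS and PI3K cascades. MET is the receptor of hepatocyte growth factor and feeds the same cascades. Squamous carcinomas of the head and neck often make much EGFR protein, and gain of its locus is a known cause of that. When the locus is gained, SEC61G, LANCL2 and VOPP1 are often gained with it.

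The 5 receptors share a kinase fold, and reads are assigned to a gene by sequence. Stretches where the receptors resemble each other therefore matter for whether their counts can be told apart. Below is the catalytic loop of each kinase over 61 bases, the length of 1 read, from GENCODE 29 transcripts on GRCh38, written 5′ to 3′ on the strand of the gene. The loop was picked as a conserved motif, and no search was made for the stretch of highest similarity. Capitals mark the codon of the catalytic aspartate, the residue that in an active kinase accepts the proton of the substrate. In ERBB3, a receptor known for weak kinase activity, this codon reads asparagine.
EGFR: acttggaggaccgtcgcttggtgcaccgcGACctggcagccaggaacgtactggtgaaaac
ERBB2: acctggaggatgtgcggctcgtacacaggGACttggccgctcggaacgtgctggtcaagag
ERBB3: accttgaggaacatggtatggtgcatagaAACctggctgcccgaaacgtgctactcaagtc
ERBB4: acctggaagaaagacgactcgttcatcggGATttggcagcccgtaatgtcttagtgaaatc
MET: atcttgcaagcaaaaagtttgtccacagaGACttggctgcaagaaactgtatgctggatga
In this window EGFR and ERBB2, the most similar pair there, had the same base at 42 of 61 positions (68.9%). EGFR and MET shared 31 of 61 (50.8%), and ERBB4 and MET 29 of 61 (47.5%). Over whole transcripts the longest identical run between any pair of receptors was 13 to 25 bases, well short of a read of 61 bases. GC content of the window ran from 42.6% in MET through 47.5% in ERBB4, 50.8% in ERBB3 and 60.7% in EGFR to 62.3% in ERBB2. The genes also differ in GC content as a whole, which matters for their levels further on.

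Library totals were 2697502 to 2977837 counts in the stiff group and 2445498 to 2545385 in the soft group, and each library had counts in 97.5% to 97.9% of all genes. Ribosomal RNA genes took 20% to 22.9% of counts in stiff libraries and 2.97% to 8.87% in soft ones. Mitochondrially encoded messengers took 0.162% to 0.201% in stiff libraries and 1.48% to 1.81% in soft ones. CPM is the count relative to the library total after TMM scaling, which adjusts the totals so that most genes sit at the same level in all libraries. Of the 17 squamous epithelial markers, all 17 had counts in every library, with a summed level of 440 to 480 CPM in stiff and 423 to 441 CPM in soft libraries. Of 21 markers of fibroblasts, endothelium, blood and liver, some of which, such as VIM, carcinoma cells can also make, 20 had counts in every library and none was at 0 throughout. Their summed level was 606 to 620 CPM in stiff and 582 to 614 CPM in soft libraries. The sums of the lists are not comparable, since the lists differ in size and GC content. The libraries thus held counts for genes typical of cells other than the cultured line, as they did for nearly all genes. Counts for such genes do not by themselves show RNA of other cells. The source of these counts, and any part of it in the values of the 8 genes, was not tested.

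None of the 8 genes passed the test between stiff and soft gel, and for all 8 the CPM of the groups overlapped. Over all 31074 genes tested, 140 were called at an adjusted p under 0.05 (0.451%), and the CPM of the groups did not overlap for 14.1% (7.38% higher and 6.76% lower in stiff). The adjusted p-values come from the quasi-likelihood test of edgeR with Benjamini-Hochberg adjustment over all genes tested. Unadjusted p-values of the 8 genes ran from 0.318 to 0.967, while 9.51% of all genes tested had one under 0.05. Where counts come from vesicle messengers, a lower value can mean fewer molecules per vesicle or fewer vesicles that carry any. Counts cannot tell these apart. Each library had counts in 97.5% to 97.9% of all genes, and the share of counts that came from messengers was not tested. In a simulation of this comparison with 30613 genes, 28.4% of the genes planted at 1.5-fold and 88.1% of those planted at 2-fold were recovered. A change well under 2-fold could therefore be missed. These rates pool genes of many count levels, with the same dispersion set for every gene, so they are not rates for each of the 8 genes. SEC61G had fewer counts than any planted gene.

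EGFR, the receptor for EGF, TGF-alpha and amphiregulin, had 286, 366 and 288 counts in stiff libraries and 351, 340 and 336 in soft libraries. That is 117.6, 137.4 and 109.5 CPM in stiff and 128.8, 123.2 and 126.7 CPM in soft. The stiff libraries lay on both sides of the soft ones, with stiff replicate 2 the highest of all 6. The means were 121 ± 14.3 CPM in stiff and 126 ± 2.83 CPM in soft (SD, n = 3 each). The log2 fold change of stiff over soft was -0.05 (SE 0.087), with a 95% interval from -0.23 to 0.12 and an adjusted p of 0.908 by edgeR. In folds, the interval runs from 0.856 to 1.09.

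ERBB2, which binds no known ligand and serves as the preferred partner of the other receptors, had 145, 176 and 175 counts in stiff and 181, 180 and 194 in soft libraries. Its level was 59.61, 66.06 and 66.54 CPM in stiff against 66.39, 65.2 and 73.15 CPM in soft. The lowest value was in a stiff and the highest in a soft library, and the remaining 4 lay within 65.2 to 66.54 CPM. The log2 fold change was -0.09 (SE 0.11, 95% interval -0.31 to 0.13, adjusted p by edgeR 0.870).

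ERBB3, the neuregulin receptor whose tail docks PI3-kinase, had 125, 121 and 110 counts in stiff and 134, 134 and 135 in soft libraries. Its raw counts were lower in every stiff library, but in CPM, which was 51.39, 45.42 and 41.82 in stiff and 49.15, 48.54 and 50.9 in soft, stiff replicate 1 stood above all soft libraries. The log2 fold change was -0.10 (SE 0.13, 95% interval -0.36 to 0.15, adjusted p by edgeR 0.871).

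ERBB4, the other neuregulin receptor, had 127, 173 and 106 counts in stiff and 141, 137 and 126 in soft libraries. In CPM the stiff libraries, at 52.21, 64.93 and 40.3, spanned the soft ones, at 51.72, 49.62 and 47.51. The SD was 12.3 CPM in stiff and 2.11 CPM in soft. The log2 fold change was 0.08 (SE 0.13, 95% interval -0.17 to 0.33, adjusted p by edgeR 0.903), and without stiff replicate 2 its sign turned, to -0.10.

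MET had 98, 98 and 88 counts in stiff and 97, 97 and 76 in soft libraries, which is 40.29, 36.78 and 33.46 CPM in stiff and 35.58, 35.14 and 28.66 CPM in soft. The highest 2 values were stiff and the lowest was soft, with an overlap between 33.46 and 35.58 CPM. Among the 8 genes MET had the smallest p and the largest difference, a log2 fold change of 0.15 (SE 0.15, 95% interval -0.14 to 0.44, adjusted p by edgeR 0.815).

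**Figure D1:**
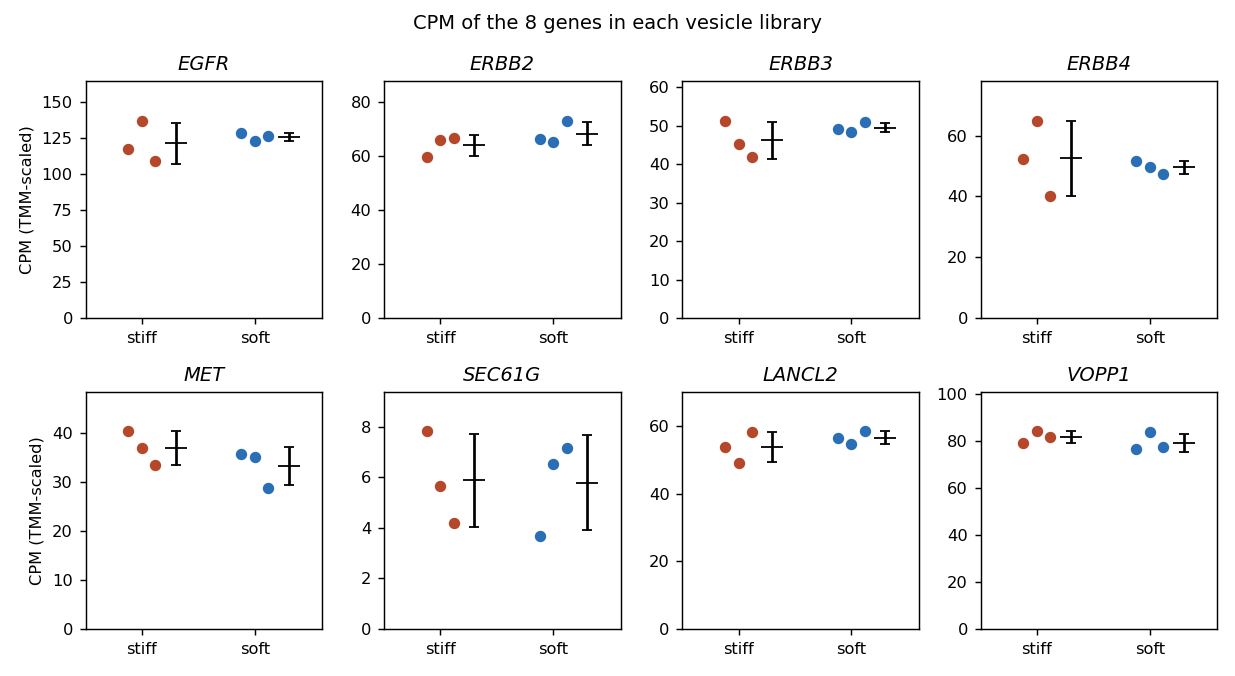
TMM-scaled CPM of the 8 genes, 1 panel a gene with its own axis from 0. Each point is 1 library (stiff in red on the left, soft in blue on the right, replicates 1 to 3 from left to right), and the bar beside the points is the mean ± SD of 3 libraries. The groups overlap in all 8 panels, and ERBB4 has the widest spread among the stiff libraries relative to soft, 12.3 against 2.11 CPM.

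SEC61G, a subunit of the channel that takes new proteins into the endoplasmic reticulum, has a short transcript and few counts: 19, 15 and 11 in stiff and 10, 18 and 19 in soft libraries. The groups overlapped over nearly their whole range, and its log2 fold change of 0.01 had an SE of 0.36 and a 95% interval from -0.70 to 0.73 (adjusted p by edgeR 0.996). A change in either direction of up to about 1.66-fold, the upper end of the interval, lies within that error. LANCL2, a cytosolic protein of the lanthionine synthetase C-like family, had 131, 131 and 153 counts in stiff and 154, 151 and 155 in soft libraries. Its CPM overlapped, with 49.17 to 58.17 in stiff and 54.69 to 58.44 in soft, and its log2 fold change was -0.07 (SE 0.12, 95% interval -0.31 to 0.17, adjusted p by edgeR 0.912). VOPP1, a membrane protein of cytoplasmic vesicles, had 192, 224 and 215 counts in stiff and 209, 231 and 205 in soft libraries. It was the steadiest of the 3, at 81.6 ± 2.57 CPM in stiff and 79.2 ± 3.88 CPM in soft (SD, n = 3 each), with a log2 fold change of 0.04 (SE 0.10, 95% interval -0.16 to 0.24, adjusted p by edgeR 0.943).

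EGFR was also set against its neighbours within each library, which needs no scaling between libraries. The ratio of EGFR counts to the summed counts of SEC61G, LANCL2 and VOPP1 was 0.836, 0.989 and 0.76 in stiff and 0.941, 0.85 and 0.887 in soft libraries. The stiff libraries held both the highest and the lowest ratio. The means were 0.862 ± 0.117 in stiff and 0.893 ± 0.0458 in soft (SD, n = 3 each; two-sided exact permutation test, p = 0.7, where the smallest p that 3 against 3 libraries allow is 0.1).

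The other genes of the pathway were read from lists of ligands, sheddases, MET partners, adaptors, feedback regulators and targets. Of the 11 ligands of the EGFR family, 0 were called in either direction, and the median log2 fold change was -0.04, beside -0.005 over all genes tested. The ligand with the most counts was NRG1 (neuregulin 1, a ligand of ERBB3 and ERBB4), at 107 ± 7.67 CPM in stiff and 95.8 ± 2.67 CPM in soft (SD, n = 3 each, adjusted p by edgeR 0.588). NRG4, a ligand of ERBB4, came nearest to a call. It had 213, 272 and 204 counts in stiff and 311, 295 and 315 in soft libraries, or 89.1 ± 12.3 CPM in stiff and 113 ± 6.0 CPM in soft. The groups did not overlap, and the log2 fold change was -0.34 (SE 0.094, adjusted p by edgeR 0.0569). NRG4 passed the threshold under 4 of 17 alternative settings and missed it under 13. It passed with library totals in place of TMM (adjusted p by edgeR 2.73e-06), upper-quartile scaling (0.0409) and a block for replicate number (0.037). It also passed without stiff replicate 2 (0.0255). With a correction for GC content the log2 fold change was -0.235 (adjusted p by edgeR 0.423). Without stiff replicate 3 the adjusted p by edgeR was 0.454, and DESeq2 without its independent filter gave 0.5. AREG, which encodes amphiregulin, EREG, which encodes epiregulin, and TGFA are the ligands that carcinoma cells typically make for EGFR. AREG had 6.10 ± 1.42 CPM in stiff and 4.8 ± 1.69 CPM in soft, EREG 11.5 ± 2.83 CPM in stiff and 11.5 ± 1.31 CPM in soft, and TGFA 20.8 ± 1.62 CPM in stiff and 24.7 ± 3.09 CPM in soft.

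Among the 7 sheddases and their partners, which release ligands from the cell surface, 0 were called, with a median of 0.02. ADAM17, the main sheddase of TGF-alpha and amphiregulin, had the lowest p and the largest difference of the list, 28 ± 3.06 CPM in stiff and 36.9 ± 2.61 CPM in soft, with groups that did not overlap (log2 fold change -0.40, adjusted p by edgeR 0.313). RHBDF2, which escorts ADAM17 to the surface, had the most counts, 90.3 ± 9.92 CPM in stiff and 85.4 ± 8.20 CPM in soft. The 10 genes of the MET list (its ligand HGF, HGF activators and their inhibitors, and partners) had 0 calls and a median of 0.09. HGFAC, a protease that activates HGF, had the largest log2 fold change of that list, 0.41 (adjusted p by edgeR 0.197), at 49.5 ± 10.3 CPM in stiff and 37.3 ± 2.83 CPM in soft. CD44, a surface glycoprotein that acts as a co-receptor of MET, had the most counts, 115 ± 3.48 CPM in stiff and 120 ± 19.2 CPM in soft.

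Of the 27 adaptors and signal transducers 0 were called, 15 lay above and 12 below 0, and the median was 0.007. GAB2, a docking protein for PI3-kinase and SHP2, had the most counts, 76.1 ± 8.27 CPM in stiff and 83.1 ± 5.97 CPM in soft. PIK3R2, a regulatory subunit of PI3-kinase, had the lowest p, with a log2 fold change of 0.28 (adjusted p by edgeR 0.293), and NRAS, a small GTPase downstream of both receptor families, the largest difference, -0.41 (adjusted p by edgeR 0.664). The 25 feedback and endocytic regulators had 0 calls and a median of 0.09. Of these EPN1, an adaptor of clathrin-mediated uptake, had the most counts, 145 ± 15.6 CPM in stiff and 137 ± 6.20 CPM in soft, and EPS15, another endocytic adaptor of EGFR, the largest log2 fold change, 0.41 (adjusted p by edgeR 0.441). Of the 16 early target genes of EGFR signalling, such as the transcription factors of the FOS and JUN families, 0 were called. Their median was -0.09 and 13 of 16 lay below 0, against 15810 of 31074 genes tested. CCND1, which encodes the G1 cyclin D1, had the most counts of that list, 78.0 ± 4.32 CPM in stiff and 69.8 ± 7.47 CPM in soft, and IER3 the largest difference, -0.40 (adjusted p by edgeR 0.592).

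Of 21 other receptor tyrosine kinases, 1 was called higher in stiff and 0 lower, and the share of all genes called higher was 0.286%. That was FGFR3, a receptor of fibroblast growth factors, with 153, 226 and 196 counts in stiff and 150, 134 and 154 in soft libraries. In CPM the groups did not overlap, at 74.1 ± 11 in stiff and 53.9 ± 4.87 in soft (SD, n = 3 each), and the log2 fold change was 0.46 (SE 0.12, adjusted p by edgeR 0.0247). The call held under 10 of 17 alternative settings. It was lost when stiff replicate 2 (adjusted p by edgeR 0.367), stiff replicate 3 (0.105), soft replicate 1 (0.0543) or soft replicate 2 (0.222) was left out. It was also lost with library totals in place of TMM (0.243), with a correction for GC content (0.112) and with DESeq2 without its independent filter (0.282). IGF1R, the insulin-like growth factor receptor, had the most counts of the list, 111 ± 12.3 CPM in stiff and 105.3 ± 12.5 CPM in soft. Among the 17 squamous markers 1 was called higher in stiff and 0 lower, beside 0.286% of all genes called higher. That marker was KRT14, the basal keratinocyte keratin, at 33.4 ± 6.17 CPM in stiff and 20.6 ± 3.80 CPM in soft (log2 fold change 0.69, adjusted p by edgeR 0.0281). The KRT14 call held under 8 of 17 alternative settings. It was lost when stiff replicate 1 (adjusted p by edgeR 0.137), stiff replicate 2 (0.32), soft replicate 1 (0.158) or soft replicate 3 (0.11) was left out. It was also lost with library totals (0.0873), limma-voom (0.0521), a correction for GC content (0.0544) and DESeq2 without its independent filter (0.347), and DESeq2 with its filter gave KRT14 no adjusted p.

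**Figure D2:**
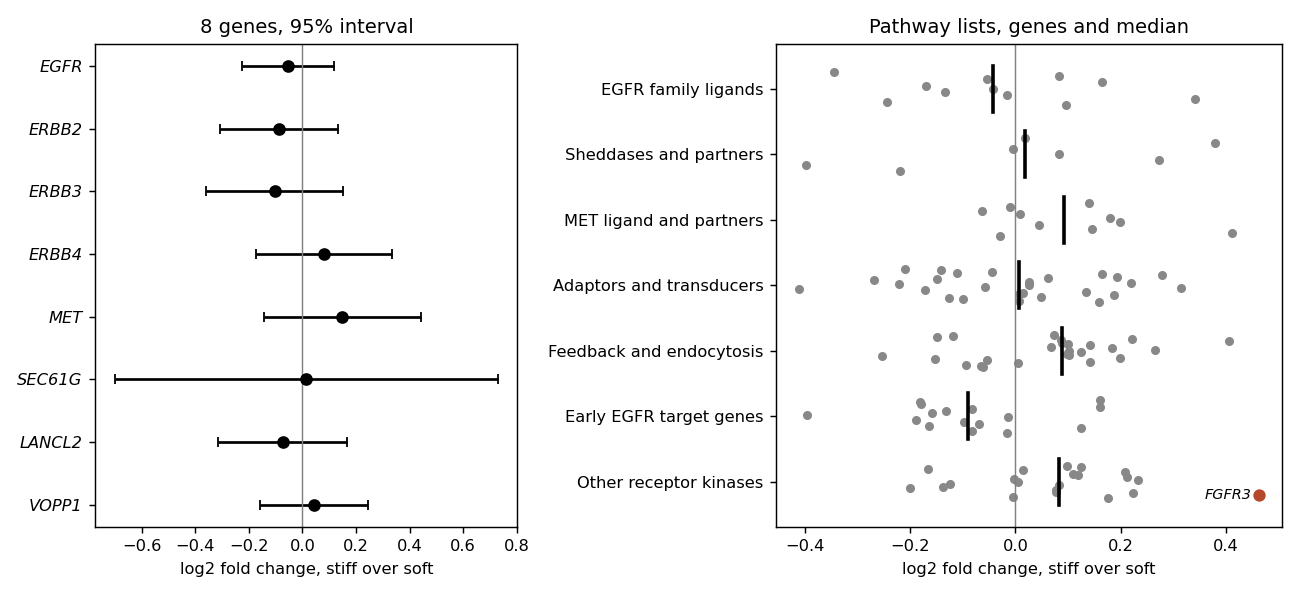
Log2 fold change of stiff over soft. On the left, points are the 8 genes and bars their 95% intervals from edgeR, all of which cross 0; SEC61G, with 10 to 19 counts a library, has the widest. On the right, grey points are the tested genes of 7 pathway lists, black bars the list medians (-0.09 to 0.09), and FGFR3 at 0.46 (red) is the one gene called.

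Levels of different genes were compared as CPM per kb of exon, since a longer transcript collects more reads. In this unit, ordered by the mean of all 6 libraries, VOPP1 was the highest of the 8, at 20.4 ± 0.643 in stiff and 19.8 ± 0.969 in soft (SD, n = 3 each). LANCL2 followed with 12.3 ± 1.03 in stiff and 13 ± 0.431 in soft, then SEC61G with 12.7 ± 3.95 in stiff and 12.5 ± 4.02 in soft. ERBB2 had 11.4 ± 0.688 in stiff and 12.1 ± 0.763 in soft, and EGFR 11.2 ± 1.32 in stiff and 11.6 ± 0.261 in soft. ERBB3 stood at 7.27 ± 0.760 in stiff and 7.79 ± 0.193 in soft, MET at 5.51 ± 0.511 in stiff and 4.95 ± 0.579 in soft, and ERBB4 last at 4.33 ± 1.01 in stiff and 4.09 ± 0.174 in soft. VOPP1 stood above LANCL2, EGFR above ERBB3 and ERBB3 above MET without overlap over the 6 libraries. LANCL2, SEC61G, ERBB2 and EGFR overlapped each with the next and have no order beyond their spread. MET and ERBB4 overlapped too, although MET was the higher of this pair in 6 of 6 libraries. With the exon lengths used here EGFR thus overlapped with ERBB2, and stood above ERBB4 in all 6 libraries. The order is not adjusted for GC content, which is 39.6% in ERBB4, 47.5% in EGFR and 59.3% in ERBB2. The order also rests on the exon length. Over the exons of all transcripts ERBB2 has 10321 bases in place of 5621, and SEC61G 1842 in place of 463. EGFR there has 12521 in place of 10861, ERBB3 9039 in place of 6361 and MET 7039 in place of 6689. The order was not worked out with those lengths, so the separations and overlaps above may not hold there. Genes of the olfactory receptor family, silent in most tissues outside the nose, had a median of 6.44 CPM per kb. That median lies between the means of ERBB3 (7.53) and MET (5.23) over the 6 libraries. Whether the order reflects expression in the carcinoma cells was not tested.

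**Figure D3:**
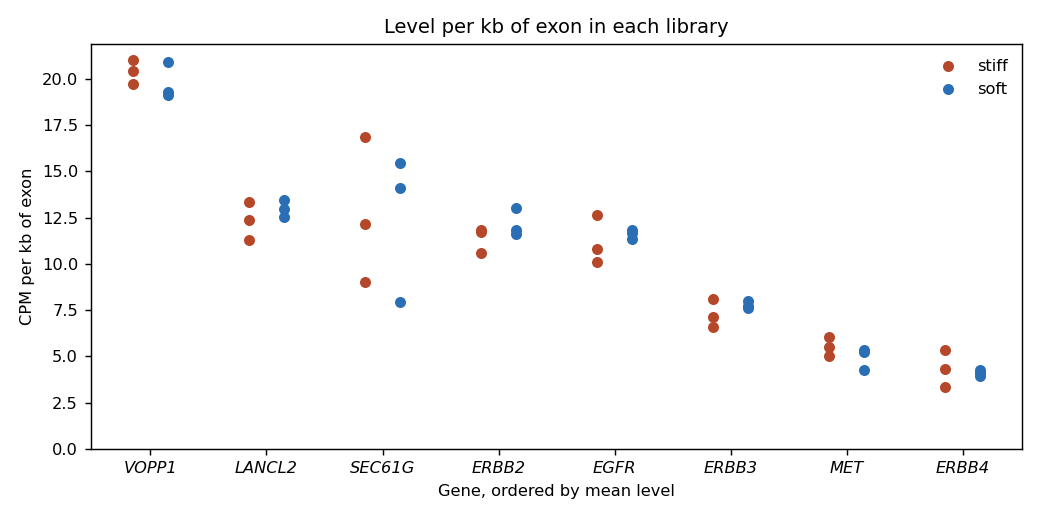
Level of each gene in CPM per kb of exon, ordered by the mean over 6 libraries. Each point is 1 library, stiff in red and soft in blue. VOPP1 stands apart at 19.16 to 21.01, the next 4 genes overlap in a chain, and SEC61G spreads from 7.92 to 16.9.

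Coordinates below are those of GRCh38 in GENCODE 29. EGFR lies on chromosome 7 from 55019021 to 55211628 on the plus strand, with 10861 bases of exon. SEC61G lies on its telomeric side from 54752250 to 54759974 on the minus strand, with 463 bases of exon. LANCL2 (55365448 to 55433742, plus strand, 4353 bases of exon) and VOPP1 (55436056 to 55572988, minus strand, 4001 bases of exon) lie on its centromeric side. MET is on the long arm of chromosome 7 (116672390 to 116798386, plus strand, 6689 bases of exon). ERBB2 is on chromosome 17 (39687914 to 39730426, plus strand, 5621 bases of exon), ERBB3 on chromosome 12 (56076799 to 56103505, plus strand, 6361 bases of exon) and ERBB4 on chromosome 2 (211375717 to 212538841, minus strand, 12136 bases of exon). Taken over the exons of all GENCODE transcripts, a wider set than the lengths above, an antisense gene, EGFR-AS1, covers 186 of 12521 exon bases of EGFR (1.49%). Of 10321 such bases of ERBB2, 571 (5.53%) are shared with MIEN1 and 194 (1.88%) with PGAP3 on the other strand. The strand setting of the counting was not given in the sources used here, so reads of these stretches are uncertain.

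Across all genes the level per kb followed GC content. The median of autosomal protein-coding genes was 4.8 CPM per kb where transcripts held under 40% GC and 17.8 CPM per kb at 60% and over. ERBB4 (39.6% GC), SEC61G (40.3%) and MET (42.4%) lie at the low end, EGFR (47.5%), LANCL2 (50.7%), ERBB3 (52.0%) and VOPP1 (54.3%) in the middle, and ERBB2 (59.3%) at the high end. Each level was therefore divided by the median level of autosomal protein-coding genes within 5 percentage points of the same GC content, so that 1 marks a gene like its GC peers.

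With this ratio the 8 genes differed by locus. All 4 genes of 7p11 were above 1 in 6 of 6 libraries. EGFR was 1.49, 1.75 and 1.38 in stiff and 1.61, 1.56 and 1.6 in soft libraries. LANCL2 was 1.46, 1.34 and 1.58 in stiff and 1.54, 1.5 and 1.6 in soft, and VOPP1 1.93, 2.04 and 2.0 in stiff and 1.9, 2.08 and 1.92 in soft. SEC61G averaged 2.30 ± 0.695 in stiff and 2.23 ± 0.710 in soft (SD, n = 3 each), but its level hangs on the exon length: over the median of chromosome 7 it was 1.22 with the exons used here and 0.435 with the exons of every GENCODE transcript. The receptors on other loci were below 1 on average. ERBB2 was 0.855 ± 0.0394 in stiff and 0.939 ± 0.0568 in soft, and ERBB3 0.805 ± 0.0869 in stiff and 0.874 ± 0.0228 in soft. ERBB4 was 0.795 ± 0.185 in stiff and 0.741 ± 0.0339 in soft, and MET 0.930 ± 0.0819 in stiff and 0.826 ± 0.0968 in soft. ERBB3 and ERBB4 passed 1 in 0 of 6 libraries, ERBB2 and MET in 1 of 6 each. This split by locus rests on the GC adjustment, which was chosen after seeing the data. Over all autosomal genes with no such adjustment, ERBB2 was at 1.36 and EGFR at 1.31, and over the genes of its own chromosome ERBB2 was at 1.14. ERBB3 was at 0.98 over its chromosome, and at 1.11 there when the longest transcript set the length.

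**Figure D4:**
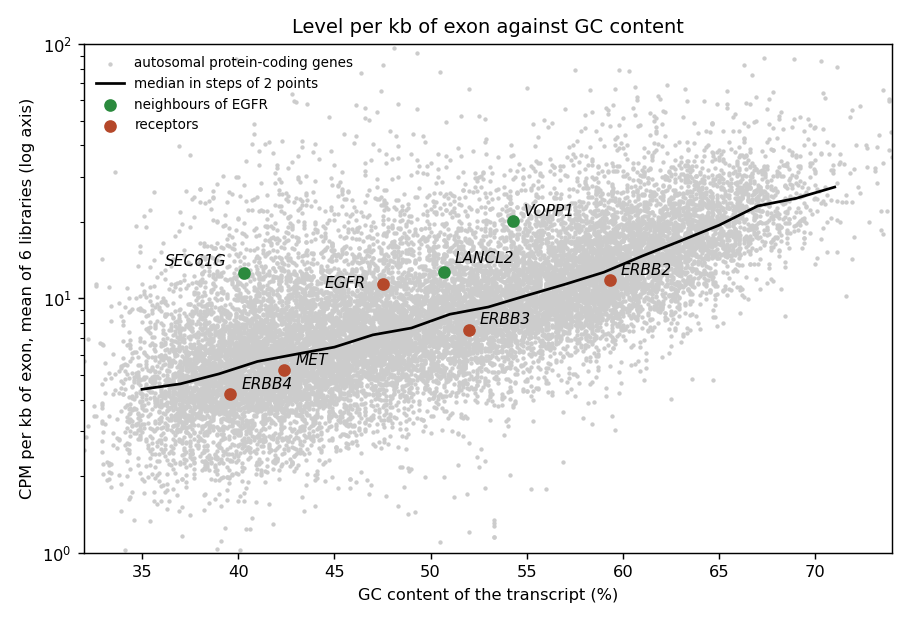
Level in CPM per kb of exon (log axis, mean of 6 libraries) against GC content of the transcript. Grey points are autosomal protein-coding genes and the black line their median in steps of 2 points of GC; the 3 neighbours of EGFR are green and the 5 receptors red. The 4 genes of 7p11 lie above the line, while MET, ERBB2, ERBB3 and ERBB4 lie below it.

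The same ratio was high along the whole short arm of chromosome 7. Its 279 protein-coding genes had a median ratio of 1.80 ± 0.0479 in stiff and 1.84 ± 0.0378 in soft libraries (SD, n = 3 each), and 273 of them were above 1. The 589 genes of the long arm had a median of 0.992 ± 0.0169 in stiff and 0.987 ± 0.0135 in soft, with 284 above 1. Within the short arm EGFR stood at percentile 31.5, LANCL2 at 26.2, VOPP1 at 62.7 and SEC61G at 77.8. EGFR was thus above the median of genes of like GC content over all autosomes and below the median of its own arm. MET stood at percentile 35.8 of the long arm. Stiff and soft libraries shared this pattern: the median log2 fold change was -0.02 over the 279 tested genes of the short arm, with 2 called, and 0.006 over 580 tested genes of the long arm, with 2 called. Over all 31074 genes tested, 0.451% were called. By the median ratio of all its genes, 1.2, chromosome 7 ranked 3rd of 22 autosomes, after chromosomes 9 (1.32) and 20 (1.22), and chromosome 4 was lowest (0.645). DNA was not measured here, so gene copies as the source of these ratios were not tested. Genes of the olfactory receptor family, which are silent in most tissues outside the nose, gave a median of 0.923 ± 0.0170 in stiff and 0.952 ± 0.0233 in soft over 375 genes. That is close to the median of 0.949 ± 0.0148 in stiff and 0.859 ± 0.0729 in soft over the 17 squamous markers.

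**Figure D5:**
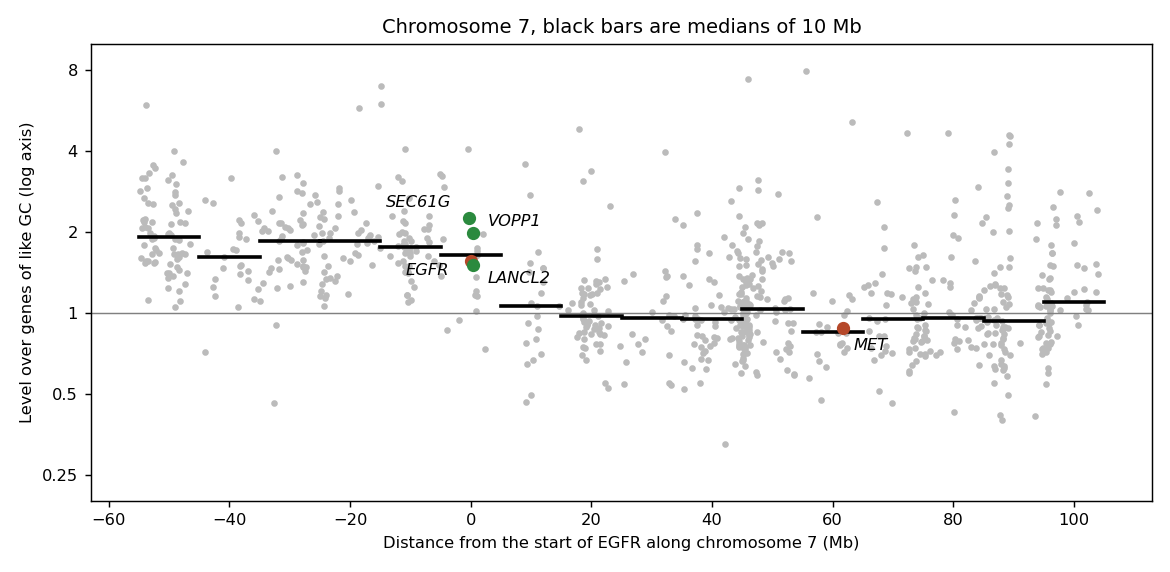
Level over autosomal genes of like GC content (log axis, mean of 6 libraries) for protein-coding genes of chromosome 7, against distance from the start of EGFR in Mb. Black bars are medians of 10 Mb, the grey line marks 1, and receptors are red and neighbours of EGFR green. The genes of the short arm have a median of 1.82 and those of the long arm, with MET among them, 0.99.

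Close around EGFR the ratio was also above 1, but lower than along the arm as a whole: over the 6 libraries it ran from 1.46 to 1.66 near EGFR and from 1.76 to 1.88 on the short arm, a difference that was not tested. The 16 protein-coding genes within 2 Mb with at least 500 bases of exon, a limit that leaves out SEC61G, had a median ratio of 1.53 ± 0.112 in stiff and 1.54 ± 0.0493 in soft, and 15 of 16 were above 1. Without EGFR, LANCL2 and VOPP1 the other 13 gave 1.43 ± 0.191 in stiff and 1.48 ± 0.0374 in soft. Next to SEC61G on its far side from EGFR, VSTM2A, a gene mainly known from brain and fat, reached 4.08 ± 0.171 (SD over 6 libraries), more than any of the 8 genes. This value rests on the exon length used here, and no other length was tried for VSTM2A. PSPH, an enzyme of serine synthesis further along, was at 1.98 ± 0.235, and POM121L12 at 0.940 ± 0.222 was the one below 1. Over the median of all chromosome 7 genes, with no GC adjustment, the neighbourhood was 1.23, 1.25 and 1.21 in stiff and 1.31, 1.2 and 1.21 in soft libraries (two-sided exact permutation test, p = 1.0, smallest possible 0.1). Of the 23 listed neighbours on 7p11 and 7p12 the table held 21, of which 0 were called, with a median log2 fold change of -0.06.

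By the ratio to genes of like GC content, the other loci stood lower. Around MET on 7q31, 15 genes within 2 Mb had a median ratio of 0.921 ± 0.0166 in stiff and 0.890 ± 0.0183 in soft (SD, n = 3 each). CAV1, the caveolin gene on one side of MET, was at 0.773, and CAPZA2, an actin-capping protein on the other, at 0.714. Around ERBB2 on 17q12, a locus amplified in some breast and gastric cancers, 127 genes had 0.863 ± 0.0209 in stiff and 0.853 ± 0.0231 in soft, and its flanking genes PGAP3 and MIEN1 were at 0.869 and 0.944. Around ERBB3 on 12q13, 121 genes had 0.913 ± 0.0305 in stiff and 0.943 ± 0.0124 in soft. RPS26 on one side was at 1.28 and PA2G4 on the other at 1.02. Both have near-identical copies elsewhere in the genome, so their counts are uncertain. Around ERBB4 on 2q34, 12 genes had 0.869 ± 0.0879 in stiff and 0.899 ± 0.0883 in soft. Its neighbour CPS1, an enzyme of the urea cycle, was at 0.791, while IKZF2, a lymphoid transcription factor, was at 2.81. Over the median of its own chromosome, with no GC adjustment, 12q13 was above 1, at 1.14 ± 0.026 in stiff and 1.15 ± 0.03 in soft. In that measure 7q31 (0.539 in stiff, 0.488 in soft), 17q12 (0.865 and 0.854) and 2q34 (0.654 and 0.682) were below 1. The 14 listed neighbours of MET, 14 of ERBB2, 13 of ERBB3 and 6 of ERBB4 had 0 calls, with median log2 fold changes of 0.05, -0.04, -0.02 and -0.03 in that order.

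The pathway lists lay on both sides of their GC peers, the ligands lowest and below 1 in every library, the early targets highest and above 1 in every library. The median ratio was 0.801 ± 0.0761 in stiff and 0.838 ± 0.0509 in soft for the 11 ligands, and 0.982 ± 0.0195 in stiff and 1.01 ± 0.0547 in soft for 26 adaptors. The 7 sheddases and partners had 0.885 ± 0.138 in stiff and 0.894 ± 0.0769 in soft, and the 10 genes of the MET list 0.973 ± 0.0567 in stiff and 0.928 ± 0.00504 in soft. The 25 feedback regulators had 0.999 ± 0.0331 in stiff and 0.897 ± 0.0567 in soft, and 20 other receptor tyrosine kinases 0.933 ± 0.00965 in stiff and 0.875 ± 0.0249 in soft. The 16 early target genes were the highest list, at 1.10 ± 0.0411 in stiff and 1.22 ± 0.0124 in soft. Among the ligands AREG (0.661 ± 0.191, SD over 6 libraries), EREG (0.50 ± 0.0824) and TGFA (0.700 ± 0.0920) were below 1. The 4 neuregulins were above 1, with NRG1 at 1.74 ± 0.150, NRG2 at 1.49 ± 0.126, NRG3, mainly known from the nervous system, at 1.94 ± 0.249, and NRG4 at 15.8 ± 2.37, the highest of all genes in these lists. The ratio of NRG4 rests on the exon length used here, and no other length was tried for it. By the mean over 6 libraries EGFR, at 1.56 ± 0.123, lay under NRG1, NRG3 and NRG4 and under 8 other genes of the lists. These were CD44 at 2.64 ± 0.285, CCND1 at 2.07 ± 0.197, ERRFI1, a feedback inhibitor of EGFR, at 1.94 ± 0.0898, the receptor kinase ROR2 at 1.76 ± 0.198, the transcription factor MYC at 1.75 ± 0.399, the phosphatase DUSP1 at 1.74 ± 0.197, the kinase MAP2K2 at 1.73 ± 0.0939 and the ubiquitin ligase CBLB at 1.64 ± 0.109. MYC, DUSP1 and CBLB were above EGFR by less than their own SD, so they have no order against EGFR beyond their spread.

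Genes whose profile over the 6 libraries was most like that of EGFR were found by the root mean square difference of log2 CPM after centring each gene. They were SLC8A1 (0.0394), NR4A1 (0.0402), SDCCAG8 (0.0472), MAGI2 (0.0486) and LAMA1 (0.0487), out of 2623 genes whose median difference was 0.16. The genes compared had a lower limit of mean count set from that of EGFR and no upper limit. For MET the most alike were DDX39A (0.0282), NAPB (0.0408), LOC112268066 (0.0459), NLRC3 (0.0468) and PADI2 (0.0485), out of 16733 genes, limited in the same way, with a median of 0.214. With an SD of 0.112 for EGFR and 0.16 for MET over the libraries, both profiles are nearly flat over the 6 libraries.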

How the data were processed

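RNA of vesicles in 6 libraries (3 stiff, 3 soft) was counted per gene. The deposited values are raw counts per gene symbol, with no normalization by the authors. Per the submitters' processing notes, FastQC 0.11.7, Trim Galore 0.4.2, cutadapt 1.9.1, STAR 2.6.1e, featureCounts 1.6.2, DESeq2 1.26.0 and build hg38 were used. Per the labels' protocols, about 10 ng of total RNA entered a directional kit with 9 PCR cycles and paired reads of 61 bp. Annotation, strand setting, multi-mapping, DNase treatment and rRNA removal are not given in the sources used here. No molecular identifiers are named, so reads copied by PCR are not independent, and intervals may cover less than the full error. In 1 description a stiff library repeats the number of another, and title numbers were used. Every pair of replicates differed by more than sampling noise (chi-square per degree of freedom 1.53 to 3.86), so each library counted as 1 sample. The titles call them biological replicates without saying what was repeated, so p-values rest on the spread between these libraries, whatever its source. In edgeR that spread is shared across genes, so an SE need not follow the spread of its own gene. ERBB4, with SDs of 12.3 CPM in stiff and 2.11 CPM in soft, had an SE of 0.128. The adaptor GAB1, with SDs of 1.49 CPM in stiff and 1.55 CPM in soft, also had 0.128.

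Stiff was compared with soft in edgeR 4.0.16 (R 4.3.3; TMM, filterByExpr, robust quasi-likelihood, two-sided), adjusted by Benjamini-Hochberg over 31074 genes. The procedure was tested on simulated data, where 2.04% of calls were false. Alternatives included limma-voom 3.58.1 and DESeq2 1.42.0. The replicate numbers did not pair the samples. Of the symbols 71.3% matched a GENCODE 29 gene. Exon length is the union of exons of RefSeq-matched transcripts, and GC content that of the longest such transcript. Compared genes were 18003 autosomal protein-coding genes with at least 500 bases of exon. Named genes are the 8 genes, and of each list any gene called and those with the most counts, the lowest p and the largest difference, beside flanking genes and the 5 most alike. AREG, EREG, TGFA, NRG2, NRG3, ERRFI1, ROR2, MYC, DUSP1, MAP2K2, CBLB, VSTM2A, PSPH and POM121L12 were added after their values were seen where this rule did not name them. The genes, lists and tests were chosen with earlier results of these data known. The ratio to genes of like GC content, the exon length, the split of chromosome 7 at 60 Mb and the olfactory receptor genes were chosen after seeing the data.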

Additional observations from a re-analysis of the deposited data

How the results depend on the processing

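Apart from library totals alone, no alternative called any of the 8 genes. Library totals alone, which move the median of all genes to -0.273, gave 4194 calls in place of 140 and 39 in place of 2 in the lists, and EGFR (-0.32, adjusted p by edgeR 0.0119), ERBB2 (-0.36), ERBB3 (-0.37) and LANCL2 (-0.34) passed there while ERBB4 (-0.19), MET (-0.12), SEC61G (-0.25) and VOPP1 (-0.23) changed sign. These values lie near that shift. Genes called were 88 with DESeq2, 46 with DESeq2 without its filter and 38 with a GC offset, and list calls 1, 0 and 0 with these and 1 with limma-voom. With the GC offset EGFR was at 0.00706. Leaving out 1 library at a time gave 60 to 136 calls (85, 60 and 75 without stiff replicates 1, 2 and 3, and 77 without soft replicate 2), 0 to 1 in the lists, -0.15 to 0.02 for EGFR, -0.10 to 0.24 for ERBB4 and -0.23 to 0.21 for SEC61G. The signs turned without stiff replicate 3 (EGFR, 0.0185), without stiff replicate 2 (ERBB4), and without stiff replicate 1 (-0.231) or soft replicate 1 (-0.224) (SEC61G); the cause was not tested. The replicate block gave 173 calls, none of them in the 8 genes, and also called NRG4 (adjusted p by edgeR 0.037), and same-numbered libraries correlated at 0.00407 to 0.0089 (stiff and soft deviations over 15770 genes), with replicate 2 closer to another number. The level of EGFR over the chromosome 7 median, 1.11, was 1.27 against genes of like GC on chromosome 7, 1.31 against all autosomal genes, 1.57 against autosomal genes of like GC, 1.36 with exons of all transcripts and 1.29 with the longest transcript; 1.23 for the neighbourhood became 1.38, 1.47, 1.66, 1.33 and 1.28 in that order, and 1.28 within 5 Mb. Over the same choices ERBB2 ran from 0.887 to 1.38, ERBB3 from 0.839 to 1.11, ERBB4 from 0.485 to 0.768 and MET from 0.519 to 0.878. SEC61G, at 10 to 19 counts, is limited by depth.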
